A study of Mus musculus with 10 samples.

Results

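Cytosolic ribosomal proteins are the protein parts of the ribosomes that translate messages from the cell nucleus. Members were taken by symbol, as the mouse genes named Rpl or Rps with a number, together with Rplp0, Rplp1, Rplp2 and Rpsa. Of 90 such symbols in RefSeq, 84 of them protein coding, 79 genes had a probe on the array. The comparison covered 75 of them, among 14506 genes tested in all. Among the protein-coding members for which no probe was found here are Rpl10l, Rpl32l, Rpl34 and Rps12.

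The series compared colon tumors with adjacent normal colon epithelium on 10 one-colour oligonucleotide arrays. The 7 tumors are given in the labels as tubular adenomas that carry a dominant active mutation of Ctnnb1, the gene of beta-catenin. The 3 normal samples are given as Ctnnb1 wild type. Mouse 41 and mouse 42 each gave 3 tumors and 1 normal sample, and mouse 43 gave 1 tumor and 1 normal sample, so the tumors share animals. All samples came from CYP1A-humanized mice on the AIN93M diet. At 6 weeks of age each animal was given PhIP, a carcinogen of cooked meat, 2 times at 100 mg/kg, followed by 1 week of 1.5% DSS (dextran sulfate sodium), an agent that damages the gut lining. The mice then went 8 weeks without treatment and were sampled at 16 weeks. Untreated animals are not among the samples, so both tissues carry the exposure. Mouse 42 was female and the others male, so animal and sex cannot be told apart.

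A ribosome is built in the nucleolus from RNA and proteins, and the small and the large subunit meet at the start of each round of translation. Most ribosomal proteins are needed in equal number, and their genes are expressed strongly in nearly every tissue, with much demand in dividing epithelium. In vertebrates their messages begin with a run of pyrimidines, the terminal oligopyrimidine (TOP) tract, through which growth signalling by mTOR sets how well they are translated. The arrays measure the amount of each message and not its translation.

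The start sites are shown because the TOP tract is a known feature of the messages of this gene class. They come from RefSeq promoters of GRCm38.p6, which held an entry for 60 of the 79 members, and each line runs from 15 bases before to 15 bases after the annotated start, 5′ to 3′. Capitals mark the longest run of C and T within the window where it has at least 5 bases. The windows lie at chr7:45128731-45128760 on the minus strand for Rpl13a, chr14:18270972-18271001 on the minus strand for Rpl15, chr7:109519180-109519209 on the plus strand for Rpl27a and chr7:141447636-141447665 on the plus strand for Rplp2. For comparison, the windows of Rps4x at chrX:102189377-102189406 and Rpl7l1 at chr17:46782642-46782671, both on the minus strand, held no such run. All 6 genes were higher in tumors.
Rpl13a: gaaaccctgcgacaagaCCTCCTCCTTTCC
Rpl15: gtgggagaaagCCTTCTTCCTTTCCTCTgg
Rpl27a: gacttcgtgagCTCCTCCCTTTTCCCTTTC
Rplp2: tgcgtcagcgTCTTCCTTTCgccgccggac
Rps4x: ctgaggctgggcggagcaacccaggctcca
Rpl7l1: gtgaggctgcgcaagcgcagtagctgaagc

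A run of at least 8 pyrimidines in this window was found in 26 of 60 members (43.3%), against 14.0% of 17492 protein-coding genes. In the whole 300 bases, on either strand, CCGGAAG, the core that ETS factors read, was found in 41.7% of members and 12.9% of genes. AAGATGGC, the letters of the YY1 motif, stood in 6 of 60 members and in 3.57% of genes. TATAAA, the TATA box, stood in 11.7% of members and 14.8% of genes. An annotated start need not be the one used in colon, and a match is a description of the letters only. The tested members with a pyrimidine run numbered 26, of which 6 were higher in tumors, with a median log2 difference of 0.13. Among the 31 without it, 8 were higher, with a median of 0.10. Of all genes tested, 25.9% were higher, so both counts were near the background.

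Most ribosomal protein probes differed little in intensity between tumors and normal epithelium, and the brightest pixel of 45 of the 75 was at least 32768 on every array, where the scanner reads up to 65535. Past a Benjamini-Hochberg adjusted p under 0.05 in limma, with the mouse as a block, 16 of 75 members were higher in tumors (21.3%). Of all genes tested, 25.9% were higher by the same rule. A single member, Rpl30, was lower (1.33%), where 23.7% of all genes were lower. In either direction 17 members were called, beside 49.6% of all genes. The share of members called higher was thus near the background, and the share called lower was small beside it. The log2 difference was within 0.25 of 0 for 62 of 75 members (82.7%). It was at least 1 with an adjusted p under 0.05 for 1 member (1.33%), where 11.4% of all genes changed at least 2-fold.

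The median log2 difference, tumor minus normal, was 0.09 over members and 0.01 over all genes tested, and 59 of 75 members were on the positive side. When arrays were scaled by their medians the order turned round (0.02 for members, 0.07 for all genes), and in the authors' deposited values the members' median was -0.04. The small general shift therefore has no settled direction against other genes. All tumors lay above all normals for 15 members (20.0%), near the 21.4% of all genes, and all tumors lay below all normals for none of the 75, while 20.0% of all genes did so. Each tumor was above the normal of its own mouse for 20 members (27.0% of all genes). Each tumor was below it for Rps14, Rps7 and Rpl30 (25.5% of all genes).

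The 16 higher calls rest on 3 animals, with 1 normal sample each. Under the block, a mouse left without its normal adds nothing to the tumor minus normal difference. Without the normal of mouse 42, and so without a part for its tumors, they fell to 5, with 17.7% of all genes higher. Without the normal or the tumor of mouse 43, either of which amounts to leaving out that mouse, they fell to 10, with 22.0% of all genes higher. With 1 mean per mouse and tissue, which counts each animal once, 7 members were higher, with 18.9% of all genes higher. Of the 12 members higher by the largest differences, Rps4x, Rpl13a, Rplp0, Rpl27, Rpl7, Rpl7l1 and Rps24 passed there, and Rps27l, Rpl24, Rplp2, Rps3 and Rpl15 did not. In bulk tissue, fewer cells of a type and less RNA per cell cannot be told apart.

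**Figure D1:**
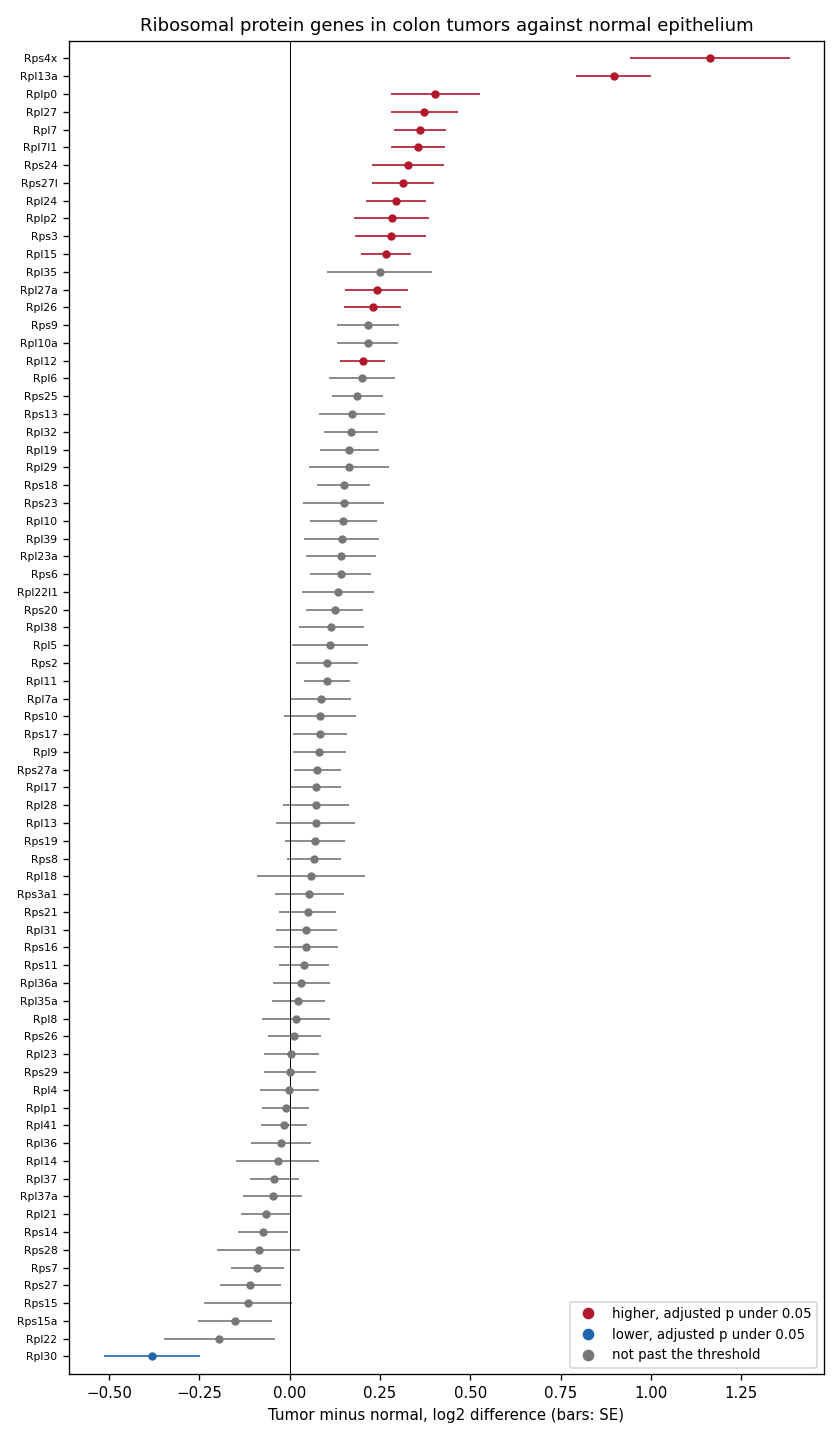
Log2 difference, tumor minus normal (horizontal axis), of the ribosomal protein genes tested, of which 1 is not drawn, with bars for 1 SE of the limma fit over 7 tumors and 3 normals. Red marks genes higher and blue the 1 gene lower at adjusted p under 0.05; Rps4x and Rpl13a lie apart from the rest, and most genes lie within 0.25 of 0.

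The plot of differences by gene shows a narrow band with Rps4x and Rpl13a beyond it. Rps4x encodes a small-subunit protein from the X chromosome. Its log2 intensity in tumors ran from 7.18 through a median of 8.08 to 8.67, against 6.83, 7.36 and 6.80 in the normals of mice 41, 42 and 43. Every tumor was above the normal of its own mouse, while the lowest tumor (tumor 3 of mouse 41) lay below the normal of mouse 42, so the groups overlapped. The log2 difference was 1.16 ± 0.22 (SE, 7 tumors and 3 normals, limma adjusted p = 0.0022), a 2.24-fold higher level. The probe was dim, although above background on every array. The lower bound on its brightest pixel ran from 147 to 816, where the scanner reads up to 65535. Rpl3, which read at the level of empty spots, had mean log2 intensities of 5.93 in tumors and 5.96 in normals. The fold of Rps4x thus rests on normals not far above that level. Rps4x passed the threshold in 26 of 28 alternative settings, with a range from 0.70 to 1.69. Here and below, such settings are not all separate checks. Leaving out the normal, the tumor or both arrays of mouse 43 is the same fit under the block.

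Rpl13a encodes a large-subunit protein that in human cells can leave the ribosome to silence inflammatory messages. Its log2 intensity in tumors ran from 12.16 through a median of 12.37 to 12.58, against 11.63, 11.43 and 11.22 in the normals of mice 41, 42 and 43. The groups did not overlap, and the gap between them was larger than the range within either group. The level of Rpl13a in tumors was 1.86-fold that in normals, a log2 difference of 0.90 ± 0.10 (SE, limma adjusted p = 0.00017). It passed in 27 of 28 alternative settings, and the exception was the authors' deposited table.

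The differences of the remaining large-subunit members were smaller than those of Rpl13a. Of 45 large-subunit genes tested, 11 were higher (24.4%, beside 25.9% of all genes) and 1 lower, with a median log2 difference of 0.11. Rpl27, a protein of the large subunit, had tumor levels from 14.35 through a median of 14.48 to 14.71, against 14.16, 14.08 and 14.20 in the 3 normals. The tumors stood above all normals, with a log2 difference of 0.37 ± 0.09 (SE, limma adjusted p = 0.0083).

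Rpl7, the core gene beside the paralog Rpl7l1, had tumor levels from 14.57 through a median of 14.73 to 14.81, against 14.37, 14.35 and 14.30 in the normals. The spread of the normals was narrow, and all tumors lay above it. The log2 difference was 0.36 ± 0.07 (SE, limma adjusted p = 0.0030). Rpl15, a core protein of the large subunit, ran from 14.81 through 14.86 to 14.90 in tumors, against 14.69, 14.51 and 14.59 in normals. Its tumors also lay wholly above its normals, at a log2 difference of 0.27 ± 0.07 (SE, limma adjusted p = 0.010).

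Rpl24, which reaches from the large subunit towards the small one, ran from 14.23 through 14.39 to 14.48 in tumors, against 14.11, 14.16 and 14.00 in normals. No value was shared between the groups, and the log2 difference was 0.30 ± 0.08 (SE, limma adjusted p = 0.015). Rpl27a, Rpl26 and Rpl12 were also higher, with log2 differences from 0.20 to 0.24, and were named after their values were seen.

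Rpl30, the member lower in tumors, had log2 intensities from 10.81 through a median of 11.48 to 11.66 in tumors, against 11.97, 11.54 and 11.33 in the normals of mice 41, 42 and 43. The groups overlapped widely, because the normals themselves stood apart by mouse, but each tumor was below the normal of its own mouse. The log2 difference was -0.38 ± 0.13 (SE, limma adjusted p = 0.039). The call depended on the block: without it the difference was -0.28 with an adjusted p of 0.31, and Rpl30 passed in 10 of 28 alternative settings.

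The stalk of the large subunit, which draws elongation factors to the ribosome, is made of Rplp0, Rplp1 and Rplp2, and 2 of these 3 genes passed the test. Rplp0 had tumor log2 intensities from 9.51 through a median of 9.79 to 10.14, against 9.42, 9.41 and 9.36 in normals. Its 7 tumors were above all 3 normals, with a log2 difference of 0.40 ± 0.12 (SE, limma adjusted p = 0.022). In the authors' deposited table its difference was -0.20. A second probe of Rplp0 gave 0.15 ± 0.14 and was not past the threshold.

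Rplp2 had tumor levels from 6.75 through 6.94 to 7.08, against 6.83, 6.56 and 6.49 in the normals of mice 41, 42 and 43. It was dim and the groups overlapped, with 6 of 7 tumors above their own normal and a log2 difference of 0.28 ± 0.10 (SE, limma adjusted p = 0.047). It passed in 10 of 28 alternative settings. Rplp1 had tumor levels from 14.80 to 14.96, against 14.88 to 14.90 in normals, and a log2 difference of -0.01 ± 0.07 (SE) that did not pass. The pixel bound of its spot, a lower bound on its brightest pixel, was at least 57237 on every array.

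**Figure D2:**
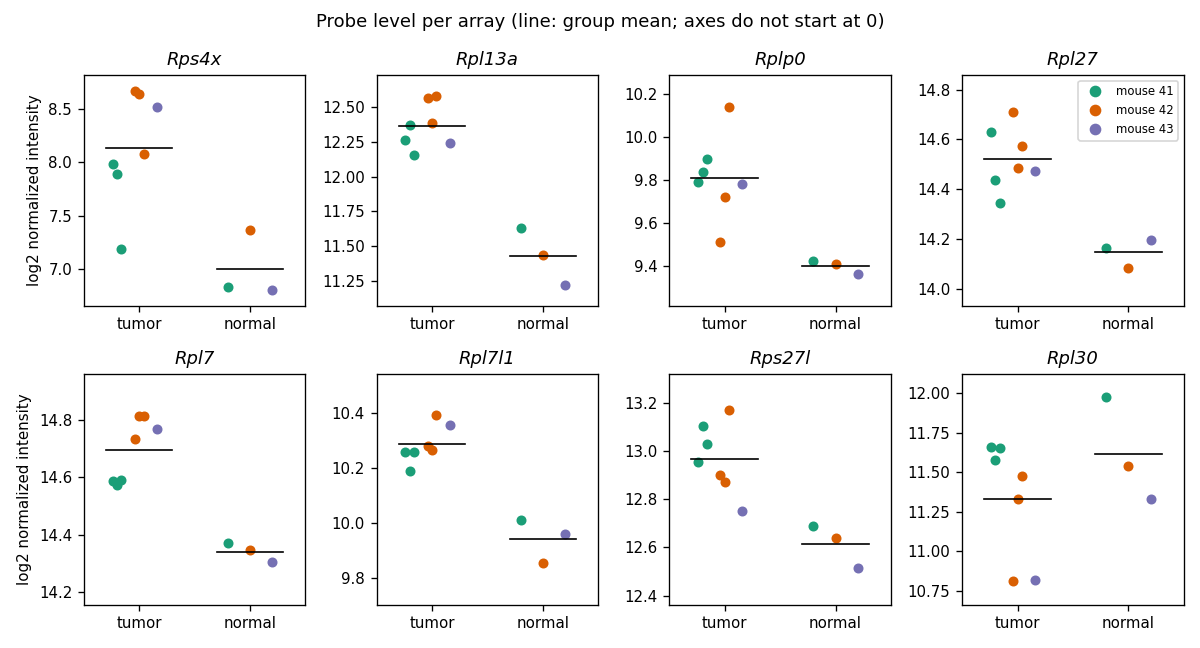
Log2 normalized intensity (vertical axis, not starting at 0) of 8 ribosomal protein genes on each array, with tumors on the left and normals on the right of each panel, colours for the mouse and lines for group means. Tumors and normals do not overlap for Rpl13a, Rplp0, Rpl27, Rpl7, Rpl7l1 and Rps27l, and they overlap for Rps4x and Rpl30.

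The small subunit had 30 members tested, of which 5 were higher (16.7%, beside 25.9% of all genes) and none lower. The median log2 difference was 0.08. By the same limma test, 23.7% of all genes were lower, and no small-subunit member had an unadjusted p under 0.05 on the negative side. Rps24, mutated in Diamond-Blackfan anemia in humans, had tumor levels from 8.97 through 9.18 to 9.36, against 8.88, 8.92 and 8.71 in the normals. The lowest tumor lay just above the highest normal, at a log2 difference of 0.33 ± 0.10 (SE, limma adjusted p = 0.021).

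Rps3, which lines the entry of the message channel, ran from 13.84 through 13.97 to 14.26 in tumors, against 13.54, 13.87 and 13.70 in the normals of mice 41, 42 and 43. The lowest tumor lay below the normal of mouse 42, and the log2 difference was 0.28 ± 0.10 (SE, limma adjusted p = 0.038). It passed in 12 of 27 alternative settings. Rps6, the substrate of the S6 kinases, ran from 14.12 to 14.46 in tumors, against 14.22, 14.09 and 13.95 in normals, with a log2 difference of 0.14 ± 0.08 (SE, limma adjusted p = 0.19). Rps19, the gene mutated most often in Diamond-Blackfan anemia, differed by 0.07 ± 0.08.

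Paralogs of the core genes gave a mixed picture. Rpl7l1, a relative of Rpl7 that works in the assembly of the large subunit, had tumor levels from 10.19 through 10.26 to 10.39, against 10.01, 9.85 and 9.96 in the normals. All tumors were above all normals, with a log2 difference of 0.36 ± 0.07 (SE, limma adjusted p = 0.0036), and its second probe also passed, at 0.32 ± 0.11.

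Rps27l, the relative of Rps27 that p53 switches on, ran from 12.75 through 12.95 to 13.17 in tumors, against 12.69, 12.64 and 12.51 in the normals. It was higher by 0.31 ± 0.09 (SE, limma adjusted p = 0.014) with no overlap. Rps27 itself ran from 14.30 through 14.46 to 14.61 in tumors, against 14.59, 14.58 and 14.52 in normals, and its difference of -0.11 ± 0.08 (SE) did not pass.

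Rpl22, which is lost by mutation in some human colorectal cancers, had tumor levels from 9.70 through 10.21 to 10.52, against 10.55, 10.37 and 10.09 in the normals. Its log2 difference of -0.19 ± 0.15 (SE, limma adjusted p = 0.32) did not pass. The paralog Rpl22l1 differed by 0.13 ± 0.10 (SE, adjusted p = 0.29), and Rpl39, a short protein of the exit tunnel, by 0.14 ± 0.11 (SE, adjusted p = 0.28). Rpl39l, known from testis, was not above background on any array, and Rpl3l, known from striated muscle, was above it in 2 tumors and 0 normals.

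Rpl5 and Rpl11, which together with 5S RNA bind Mdm2 and so free p53, were near 0. Rpl5 differed by 0.11 ± 0.11 (SE, limma adjusted p = 0.40) and Rpl11 by 0.10 ± 0.06 (SE, limma adjusted p = 0.21). Rpl10, a late joiner of the large subunit, differed by 0.15 ± 0.09 (SE, limma adjusted p = 0.21). None of these passed, although each of the 7 tumors was above its own normal for Rpl11.

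Among the brightest member probes, Rps14 had tumor levels from 15.11 through 15.22 to 15.32, against 15.27, 15.32 and 15.36 in the normals of mice 41, 42 and 43. All 7 tumors were below the normal of their own mouse, yet the difference was -0.07 ± 0.07 (SE, limma adjusted p = 0.41). On 4 arrays its median pixel was at the ceiling, so its values there are bounds. Rpl41 differed by -0.01 ± 0.06, Rpl37 by -0.04 ± 0.07, Rps20 by 0.12 ± 0.08 and Rps27a, which is made as a fusion with ubiquitin, by 0.08 ± 0.06 (SE each). At the dim end, Rps15a differed by -0.15 ± 0.10 and Rpl18 by 0.06 ± 0.15 (SE each), and neither passed.

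Rpl3, which shapes the centre where peptide bonds form, and Rpsa, which is also known as a laminin receptor, read at the level of empty spots on all 10 arrays. Their log2 intensities were 5.93 ± 0.08 in tumors and 5.96 ± 0.07 in normals for Rpl3, and 5.99 ± 0.03 in tumors and 6.01 ± 0.03 in normals for Rpsa (SD, n = 7 tumors and 3 normals). Both are core parts of every ribosome, so the intensity of a probe says nothing here of the rank of its gene. The mouse genome also holds many processed copies of ribosomal protein genes, and whether a probe binds their transcripts was not tested.

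A scanner pixel cannot read above 65535. From the mean and the SD of the pixels in a spot, a lower bound on its brightest pixel was computed, and 32768 was used as the mark for a spot near the ceiling. The bound was at or above the mark on all 10 arrays for 45 of the 75 members, on some arrays for 10, and on none for 20. Beyond the members, only 38 of the other genes tested were above the mark on every array. Among the 45 bright members 6 were higher and 0 lower, with a median absolute log2 difference of 0.09. The 10 members at or above the mark on some arrays had 3 higher and 0 lower, with a median absolute difference of 0.18. Among the 20 members below the mark on every array, 7 were higher (35%) and 1 lower (5%), with a median absolute difference of 0.16.

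For comparison, the other genes near the ceiling on every array had 10 higher and 2 lower of 38, with a median absolute difference of 0.19. The 137 other genes at or above the mark on some arrays had 32.1% higher, 35.8% lower and a median absolute difference of 0.62. A gene that differs strongly can cross the mark between arrays, so these classes are not independent of the difference. The 14256 other genes below the mark had 25.8% higher, 23.8% lower and a median absolute difference of 0.28. Across the 75 members, the mean log2 level and the absolute log2 difference had a Pearson correlation of -0.35 and a Spearman correlation of -0.36, a description over genes that share the same 10 arrays. Besides Rps14, the median pixel of Rps27a, Rpl41 and Rpl37 was at the ceiling on 1 array each. The part of the ceiling in the small differences of the bright members was not tested. The bound reached at most 816 for Rps4x and 10421 for Rpl13a.

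**Figure D3:**
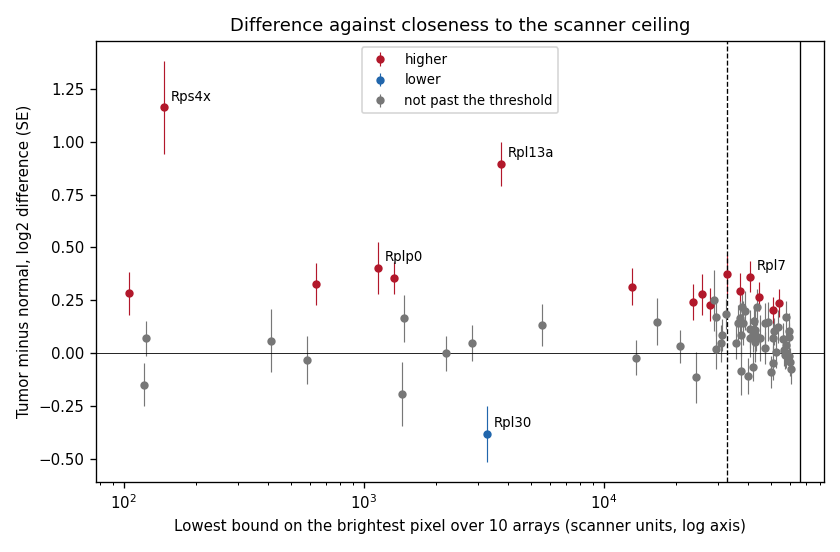
Log2 difference, tumor minus normal, with 1 SE (vertical axis) against the lowest bound on the brightest pixel over the 10 arrays (horizontal log axis, scanner units) for the 75 ribosomal protein genes tested. The dashed line is 32768 and the solid line the ceiling of 65535; the largest difference right of the dashed line is 0.37, for Rpl27.

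Several members had more than 1 probe, which gives a check within the gene. Of 16 such genes, with 37 probes, 6 had probes that differed in their call. Rpl21 was the clearest: its bright probe, above the mark, gave -0.07 ± 0.07 and was not called, while its 2 dim probes gave -0.37 ± 0.08 and -0.40 ± 0.11 (SE each) and were lower in tumors. Rpl38 gave 0.12 ± 0.09 with its bright probe, and 0.44 ± 0.11 and 0.14 ± 0.11 with 2 dim ones, of which the first was higher. Rps24 gave 0.33 with the brighter probe and -0.13 ± 0.12 with the dimmer one, and only the first of them was called. Rpl27a gave 0.24, 0.16 ± 0.13 and -0.09 ± 0.11 with its 3 probes, and Rps3 gave 0.28 and 0.21 ± 0.10. What the probes bind in common or apart was not tested, because the files used hold no probe sequences.

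Tumor by tumor, the signed differences of the members were more evenly split between the directions in mouse 41. The median log2 difference of the 75 members to the own normal was 0.01, 0.05 and 0.03 in the 3 tumors of mouse 41. Mouse 42 gave 0.10, 0.10 and 0.14, and the single tumor of mouse 43 gave 0.18. Between 38 and 44 members were above the own normal in a tumor of mouse 41, and between 52 and 59 in the other tumors. Each normal is 1 array and enters every value of its mouse, so the tumors of 1 mouse do not count separately.

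Compared directly, the tumors of mouse 42 and mouse 41 differed in 0 of 75 members by limma at adjusted p under 0.05, where 0.221% of all genes did. At an unadjusted p under 0.05 the count was 6 members (8.00%), below the 17.2% of all genes. Rps4x had the largest of these differences, 0.78 ± 0.25 (mouse 42 minus mouse 41, SE, limma adjusted p = 0.19). The difference of the tumor minus normal differences between mouse 42 and mouse 41 was called in 0 members (0.400% of all genes), and at an unadjusted p under 0.05 in 1 member, Rpl22 (1.33%), against 7.12% of all genes. Each mouse is 1 animal with 1 normal array, assumed to vary like the tumors, so neither count says that the mice were alike.

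Other lists of the translation machinery are set beside the members as counts from the same fit. Of 4 ribosomal proteins whose symbols lie outside the rule, 0 passed by limma and 1 had an unadjusted p under 0.05. Rack1 gave 0.13 ± 0.10, Fau 0.04 ± 0.08 and Rpl36al -0.30 ± 0.12 (SE each), whose unadjusted p was 0.033. Of 28 genes of RNA polymerase I and the nucleolus, where ribosomes are made, 19 were higher (67.9%) and 1 lower (3.57%). Their median log2 difference was 0.47. Of all genes tested, 25.9% were higher and 23.7% lower. Ltv1, an assembly factor of the small subunit, was higher by 1.15 ± 0.13 (SE, limma adjusted p = 0.00013). Nhp2, of the particles that modify ribosomal RNA, was higher by 0.82 ± 0.11, Polr1a, the large subunit of RNA polymerase I, by 0.57 ± 0.07, and Fbl, the methyltransferase fibrillarin, by 0.53 ± 0.07 (SE each). Fbl was on the negative side, at -0.09 and -0.14, with the spot median and in the authors' deposited table.

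Of 11 elongation and termination factors, 4 were higher (36.4%) and 1 lower (9.09%), with a median of 0.31. Eif5a was higher by 0.45 ± 0.07, the release factor gene Gspt1 by 0.44 ± 0.07 and Eef1g by 0.41 ± 0.09, while Eef2k, the kinase that restrains elongation factor eEF2, was lower by a log2 difference of -0.92 ± 0.10 (SE each). In the authors' deposited table Eif5a was on the negative side, at -0.044. Of 32 initiation factors, 9 were higher (28.1%, near the 25.9% of all genes) and 1 lower (3.12%, beside 23.7%), with a median of 0.18. Eif3a gave 0.59 ± 0.12, the helicase gene Eif4a1 0.52 ± 0.07, Eif5b 0.51 ± 0.08 and Eif2b5 0.39 ± 0.07 (SE each). Of 16 aminoacyl-tRNA synthetases, 9 were higher (56.2%) and 1 lower (6.25%), with a median of 0.31, led by Rars at 0.81 ± 0.09 (SE).

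Among 21 other genes whose messages are known to carry a TOP tract, 7 were higher (33.3%) and 0 lower, with a median of 0.13. Of all genes tested, 25.9% were higher and 23.7% lower. This list shares Eef1g and others with the elongation factors, and none of its members had an unadjusted p under 0.05 on the negative side. Vim, also a marker of stromal cells, was higher by 1.90 ± 0.16, Nap1l1, a histone chaperone, by 1.01 ± 0.10 and Npm1, nucleophosmin, by 0.58 ± 0.08 (SE each). Of 14 genes that control TOP messages or ribosome number, 3 were higher (21.4%) and 6 lower (42.9%), with a median of -0.05. Myc, which drives ribosome synthesis, was higher by 0.72 ± 0.10 (SE, limma adjusted p = 0.00054). Tsc1, a restraint on mTOR, gave -0.72 ± 0.11, Max, the partner of Myc, -0.45 ± 0.10, and Rheb, an activator of mTOR, -0.38 ± 0.09 (SE each), and all 3 were lower. The other higher genes were Mdm2 at 0.40 and the S6 kinase gene Rps6kb1 at 0.31. The other lower genes were Eif4ebp2 at -0.45, the second S6 kinase gene Rps6kb2 at -0.30 and Mxd4 at -0.27, so the S6 kinase genes went opposite ways. These genes were named after their values were seen.

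The ribosomal proteins of the mitochondrion, a separate set of genes, had 6 higher (8.45%) and 12 lower (16.9%) of 71, with a median of -0.05. Both shares were below the 25.9% and 23.7% of all genes. Mrpl15 gave -0.69 ± 0.09, Mrps24 -0.46 ± 0.08, Mrps9 -0.43 ± 0.07 and Mrpl14 -0.39 ± 0.08 (SE each). The proteasome, another complex of abundant subunits, had 24 higher and 1 lower of 30, with a median of 0.38. Psmd7 was higher by 0.81 ± 0.10 (SE) and Psmb6 was the member lower, at -0.77 ± 0.08 (SE). By percent, 21.3% of the members were higher, against 67.9% of the nucleolar list, 80.0% of the proteasome list and 8.45% of the mitochondrial list, and these shares were not tested against each other.

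**Figure D4:**
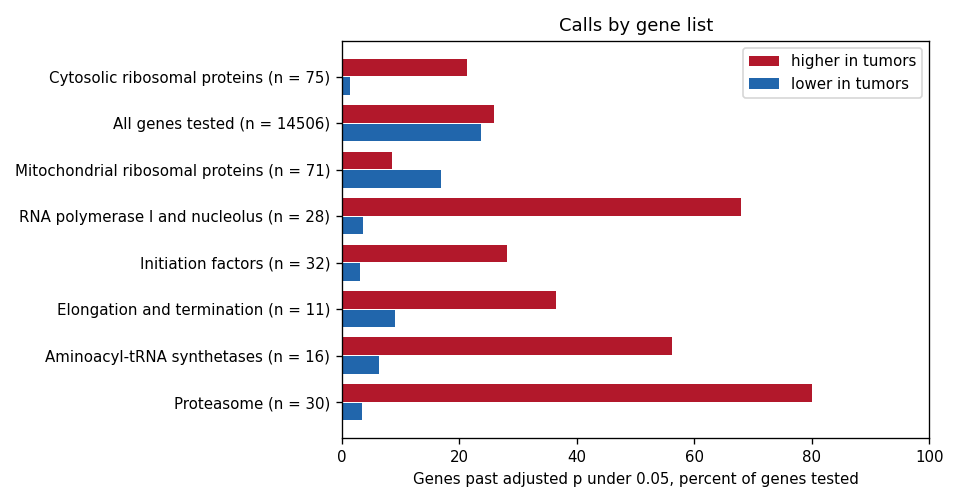
Percent of the tested genes of each list (horizontal axis) that were higher (red) or lower (blue) in tumors than in normals at limma adjusted p under 0.05. The cytosolic ribosomal proteins have 21.3% higher and 1.33% lower, beside 25.9% and 23.7% for all genes tested.

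Marker levels of several cell types differed between the groups. In bulk tissue a change in cell number and a change in RNA per cell cannot be told apart. Beside the counts that follow, 25.9% of all genes tested were higher and 23.7% lower. Of 12 colon epithelium markers, 8 were lower and 1 higher in tumors. Their summed linear intensity was 100566 to 161894 in tumors, against 165656 to 172065 in normals, all 12 being detected. All 8 fibroblast markers were higher (summed 19336 to 44676 in tumors, 7683 to 9856 in normals), as were 4 of 5 macrophage markers (10057 to 15775, against 3709 to 4764), all 5 neutrophil markers (10602 to 20266, against 1710.0 to 6249.7) and all 4 endothelial markers (1305 to 2055, against 729.7 to 1094). Cycling genes had 3 of 6 higher (11185 to 14447, against 8281 to 10158) and T cell genes 1 of 5 (784 to 1428, against 665 to 855). Smooth muscle genes had 4 of 6 lower (2070.4 to 5232, against 2936 to 7423) and B and plasma cell genes 2 of 4 (1869 to 10115, against 4614 to 7296), with Ms4a1 detected on no array. Squamous genes had 0 of 7 called (1824 to 30501, against 2346 to 22896), where 2 arrays were high, the tumor of mouse 43 and the normal of mouse 42. The part of cell make-up in the differences of the ribosomal protein genes was not tested. Without those 2 arrays, and without the mouse as a block, 12 members were higher and 0 lower, beside 20.8% and 19.6% of all genes.

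The 4 tumors of a later scan session, which were dipped or scanned again, are tumor 2 of mouse 41, tumors 1 and 2 of mouse 42 and the tumor of mouse 43, with no normal among them. The earlier session left tumors 1 and 3 of mouse 41, tumor 3 of mouse 42 and the 3 normals. Under the block, mouse 43 adds nothing there, so that fit rests on mice 41 and 42 and on fewer tumors. In the earlier session alone, 3 of 75 members were higher, against 11.2% of all genes. They were Rpl13a at 0.82 (limma adjusted p = 0.035), Rplp0 at 0.55 (adjusted p = 0.042) and Rps3 at 0.43 (adjusted p = 0.047). Rps4x gave 0.74 there (adjusted p = 0.11). With the session as a further block, 8 members were higher (10.7%, beside 18.6% of all genes) and all of them were among the 16.

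**Figure D5:**
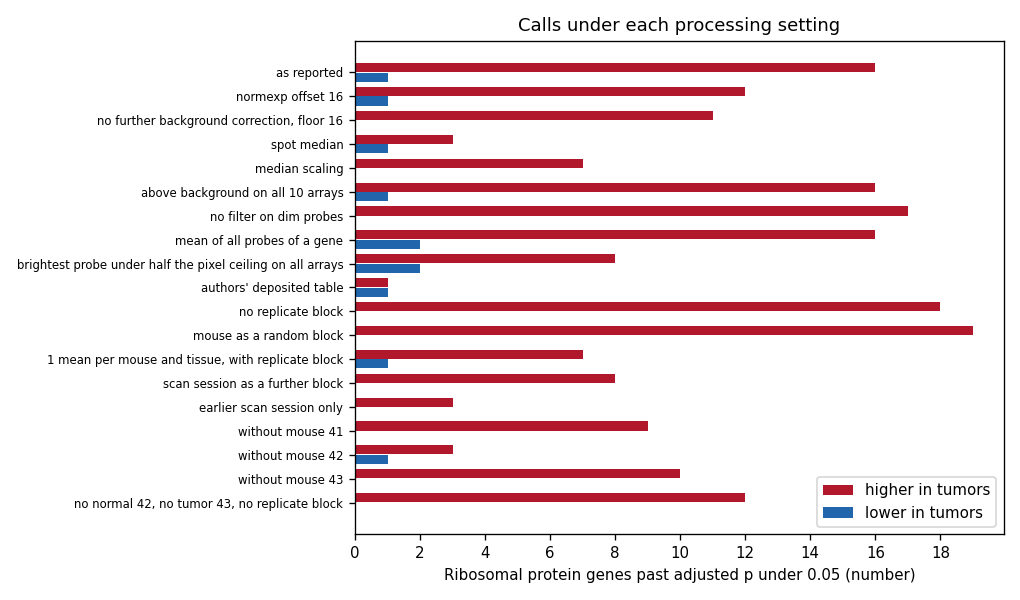
Number of ribosomal protein genes (horizontal axis) higher (red) or lower (blue) in tumors than in normals at limma adjusted p under 0.05 under each processing setting (rows; 75 genes tested, 28 where a probe had to stay below 32768). The count of higher genes runs from 1 to 19, and the count of lower genes from 0 to 2.

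The plot of calls by setting shows between 1 and 19 members higher of the 75 or 28 tested, so the number itself is not settled. With the highest count, from a random block, 26.2% of all genes were higher. Spot medians in place of means gave 3 higher calls, where 1306 of 14506 genes were higher, and the authors' deposited table a single such call, Rps4x, where 11.6% of its genes were higher. Rpl13a was past the threshold in every setting shown but that table.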

How the data were processed

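Total RNA was amplified into biotin-labelled cRNA and stained with Alexa-647, per the labels' protocols. Spots were read with a GenePix scanner at 635 nm on MEEBO oligonucleotide arrays of 38880 spots, and the deposited values are linear, unnormalized intensity of spot and local background, per the file headers. The deposited flags, another column of the same files, tell which spots the scanner software found, and 43 probes marked bad were left out. The authors' deposited table holds linear intensity of 19327 probes that matched, within 0.1%, the spot median minus background times 1 factor per array for at least 99.6% of probes. No genome build for the probes is named in the sources used here.

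Background was corrected by normexp (offset 50) on spot mean and background median, and 34312 gene probes were quantile normalized. Above background means found by the software and brighter than the 99th percentile of 432 null spots. A gene entered the tests through its brightest probe if this held on 3 or more arrays. RefSeq accessions gave 22942 probes 1 symbol. On each array 57.7% to 66.7% of gene probes were above background. The number of arrays limits the precision, and the median SE of a log2 difference was 0.11. P-values measure the spread between these samples, and the 7 tumors share 3 animals.

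The tumor minus normal difference was fitted in limma by lmFit and eBayes, taking the mouse as block because each animal gave both tissues. Same-mouse deviations from the group means correlated at 0.11, -0.07 and -0.08, and the pairing rests on the animals alone. The comparison of mouse 42 with mouse 41 was fitted to the 10 separate arrays, with a coefficient for each mouse and tissue. Arrays were not averaged beforehand, and the spread came from the tumors of mouse 41 and mouse 42. P-values were adjusted by Benjamini-Hochberg over 14506 genes. The fit with the mouse as block and the fit comparing mouse 42 with mouse 41 were also run on simulated data. The fits of the other settings were not simulated.

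The members and lists were chosen with earlier results of these data known. Genes are named by a rule: up to 12 members per direction with the largest difference past the threshold, the 5 brightest and 5 dimmest, members of known pairs or roles, and 4 genes of each other list by lowest p. A few genes are left out of the text. Background correction, scaling, filter, probe choice, block, scan session and left-out arrays or mice were varied. The spot median, the scan session, the pixel mark and the pair of arrays high in squamous genes were chosen after seeing the data. Software was limma 3.58.1 in R 4.3.3, and numpy 2.4.6, pandas 2.3.3 and matplotlib 3.10.9 in Python 3.11.15.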

Additional observations from a re-analysis of the deposited data

How the results depend on the processing

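Of the members, 16 were higher and 1 lower as reported. As reported, 25.9% of all genes were higher. The higher count of members, with the share of all genes higher in the same setting, was 3 with the spot median (1306 of 14506 genes), 7 with median scaling (29.0%), 8 of 28 with probes below the pixel mark of 32768 (25.9%), 1 in the authors' deposited table (11.6%), 7 with 1 mean per mouse and tissue and a replicate block (18.9%), 8 with the scan session as a block (18.6%), 3 in the earlier session (11.2%), 9 without mouse 41 (21.4%), 3 without mouse 42 (14.2%) and 10 without mouse 43 (22.0%). It ran from 5 to 15 with a single array left out, beside 17.7% to 26.8% of all genes. It was lowest without the normal of mouse 42, where the block also takes the tumors of that mouse out of the difference. The lower count was 0 without further background correction, with median scaling, without a filter, with no replicate block (where 18 members and 25.3% of all genes were higher), with a random block, in both session settings, without mouse 41 or 43 and without the 2 arrays high in squamous genes. In these settings 10.9% (earlier session) to 24.5% (random block) of all genes were lower. The lower count was 2 with the mean of all probes (24.4% of all genes) or with probes below the mark (23.8%). With a single array left out the lower count was 0 to 1, beside 16.6% to 24.0% of all genes. The members' median log2 difference was 0.20 with the spot median, 0.015 with median scaling, -0.042 in the deposited table, 0.16 without mouse 41, and 0.058 to 0.16 with a single array left out. In the deposited table the sign turned for Rplp0 (-0.20), Eif5a (-0.044) and Fbl (-0.14), and for Fbl also with the spot median (-0.088). The cause was not tested. The files used record no count of saturated pixels, so the planned setting on saturated spots was not run and the pixel bound took its place. The pixel bound was at or above the mark on every array for 45 members, and the probes of Rplp2, Rps19 and Rps15a were among the dimmest.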
